A study of Mus musculus with 8 samples.

Results

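The 9 genes described here encode scavenger and endocytic receptors, with their relatives, that are commonly used as markers of tissue-resident macrophages: Cd163, Msr1, Marco and Cd5l, which carry scavenger receptor cysteine-rich domains, the lectins Mrc1 and Colec12, the hyaluronan receptor Lyve1, the lipoprotein receptor Scarb1 and the folate receptor Folr2. They were found by symbol in a count table of 27133 genes, and all 9 were present and passed the filter on low counts. RNA came from parietal bone, a flat bone of the skull vault, of C57BL6J mouse pups. One group was given an isotype control antibody and the other an antibody against CSF1R (anti-CSF1R), by a route that the labels do not name, at postnatal days 2, 4 and 6. Pups were perfused and their bone was collected at postnatal day 9. There were 4 libraries per group, named here by the number in their titles (isotype 2 to 5 and anti-CSF1R 7 to 10). Nothing in the labels says that each library is 1 pup. The spread behind each p-value is therefore that between libraries, which may be technical. The antibody was given to act on myeloid cells, but the bone keeps its osteoblasts, vessels and marrow, and several of these receptors are also made by endothelium or stroma.

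Scavenger receptors bind modified lipoproteins, cell debris, haemoglobin complexes, glycans and microbes and carry them into the cell. Resident macrophages of many tissues depend on signalling through CSF1R for survival, and the mannose receptor Mrc1 and the haemoglobin scavenger receptor Cd163 are among the most used surface markers of those along vessels, in the meninges and in bone marrow. Macrophage genes are commonly under the control of the ETS-family factor PU.1, which is encoded by Spi1.

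Of the 9 genes, Mrc1 stood apart. Its RNA averaged 19.8 ± 12.6 CPM (counts scaled to the library's size, SD, n = 4) in the isotype group and 5.10 ± 2.17 CPM after anti-CSF1R, 3.87-fold lower in the fit, and it was the single member whose library values did not overlap between the groups. Cd163 and Folr2 overlapped between the groups. Csf1r, the gene of the targeted receptor and a marker of the macrophage lineage, stood at 238, 549, 421 and 238 CPM in isotype 2 to 5, against 64.4, 61.4, 62.6 and 39.4 CPM in anti-CSF1R 7 to 10. It fell, with no overlap (log2 fold change -2.66 ± 0.32, SE, edgeR adjusted p = 0.0156). In edgeR 0 of the 9 passed the threshold over all genes (adjusted p under 0.05), against 0.846% of the 17028 genes tested; limma-voom called 0 and DESeq2 1. At an unadjusted p under 0.05, 2 of the 9 remained, Mrc1 and Cd5l, against 17.9% of all genes. The share of members past either threshold was thus not a result about the list. Anti-CSF1R libraries below every isotype library were seen for 1 of 9 members, and for 8.34% of all genes. The reverse held for 0 of 9 members and 6.61% of all genes. In bulk bone, fewer cells of a type and less RNA per cell cannot be told apart.

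Isotype libraries 3 and 4 differed from the other 6, which touches every value below. Across genes, their Spearman correlation with the other 6 was 0.916 to 0.943, against 0.986 to 0.997 among those 6, and a gene's deviation from its own median over the libraries increased with its GC content in both (Spearman correlation 0.650 and 0.640, against -0.372 to -0.0290 in the others). Total counts ran from 57496279 to 69118931 per library. The floor of detection, set at 3 counts for counting error alone, was 0.0396 to 0.0573 CPM. Log2 fold changes of the members are given on all 8 libraries, with isotype 2 and 5 only, and with an offset for GC content and transcript length. Osteoblast markers, which define the bone, summed to 6143 to 7514 CPM in the 8 libraries, with 0 of 7 past the threshold in edgeR (3 at an unadjusted p under 0.05, 0 in DESeq2).

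Mrc1 and Cd163 are both widely used macrophage markers, and were both lower in isotype 3 and 4 than in isotype 2 and 5. Only Mrc1 was without overlap between the groups. Their ratio did not overlap either, but did not pass after adjustment (exact permutation adjusted p = 0.147). The RefSeq promoters of both are shown (GRCm38.p6, 250 bases before to 50 after the start site, 5′ to 3′ on the strand of the gene). The table held promoters for 5 of the 9 members. Capitals mark matches to GAGGAA, the core of a PU.1 site, or to the overlapping ETS core AGGAAG, on either strand. That of Mrc1 lies at chr2:14229164-14229463 on the plus strand, and that of Cd163 at chr6:124304401-124304700 on the plus strand.
Mrc1: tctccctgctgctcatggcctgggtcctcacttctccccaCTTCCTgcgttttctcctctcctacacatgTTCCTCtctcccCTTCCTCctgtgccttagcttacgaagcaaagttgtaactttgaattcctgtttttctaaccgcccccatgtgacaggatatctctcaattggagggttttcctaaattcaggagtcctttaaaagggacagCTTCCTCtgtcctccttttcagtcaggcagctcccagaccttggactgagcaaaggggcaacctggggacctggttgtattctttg
Cd163: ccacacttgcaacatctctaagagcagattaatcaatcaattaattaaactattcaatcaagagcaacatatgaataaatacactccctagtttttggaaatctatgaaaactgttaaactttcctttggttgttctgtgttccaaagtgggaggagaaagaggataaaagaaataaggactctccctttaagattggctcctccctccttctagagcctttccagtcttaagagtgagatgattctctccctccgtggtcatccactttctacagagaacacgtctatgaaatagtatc
The Mrc1 window held 3 matches to GAGGAA and 3 to AGGAAG, of which 2 pairs overlapped. The Cd163 window held 0 of either. Of 32851 mouse promoters of this length, 28.3% held GAGGAA and 35.4% AGGAAG. The half-site TGCTGA of the macrophage factors of the MAF family, found in 19.5% of promoters, was in neither window. Marco, Cd5l and Folr2, which passed in no setting, also held matches. Marco held 1 GAGGAA and 2 AGGAAG, and Cd5l 1 and 3, with 2 half-sites. The Folr2 windows held 0 GAGGAA, 2 and 1 AGGAAG, and 1 half-site each. Whether matches go with the response was not tested. A match is a description of the letters and not evidence that a factor binds there, and the absence of one says only that these letters are not in the window.

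**Figure D1:**
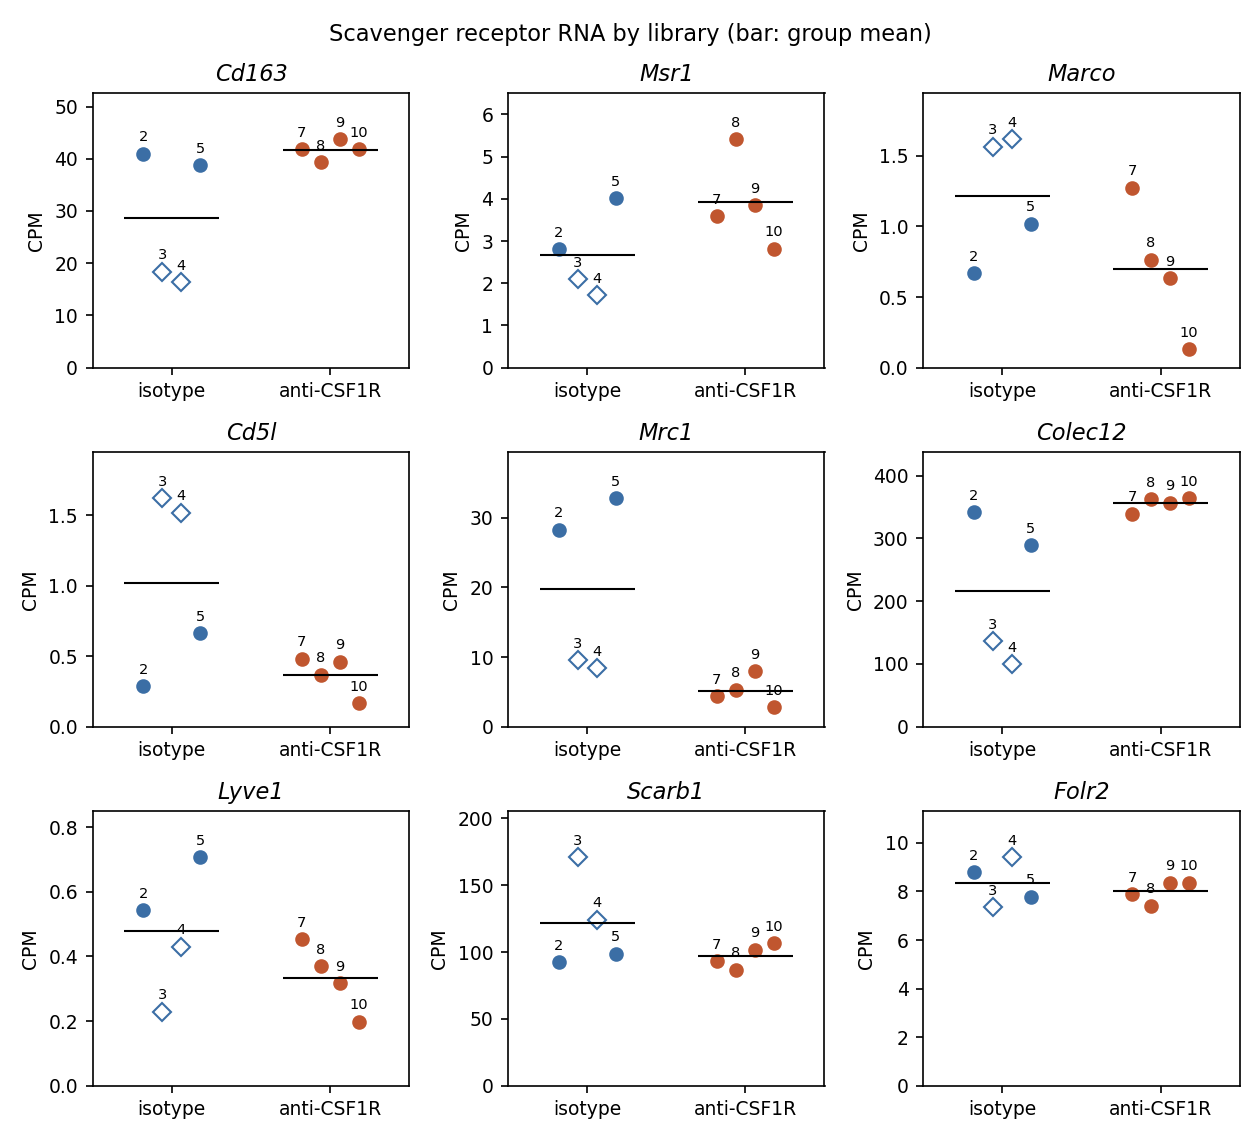
CPM of each of the 9 genes (y axis, linear, from 0) in the 4 isotype (blue) and 4 anti-CSF1R (orange) libraries, numbered as in their titles, with the group mean as a bar; open diamonds are isotype libraries 3 and 4. Mrc1 shows the 4 anti-CSF1R libraries between 2.77 and 7.96 CPM, below all 4 isotype libraries, while in Cd163 and Colec12 isotype 2 and 5 stand near the anti-CSF1R libraries and isotype 3 and 4 below them.

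Mrc1 encodes the mannose receptor (CD206), a C-type lectin that clears glycoproteins and collagen fragments. It stood at 28.3, 9.54, 8.42 and 32.8 CPM in isotype 2, 3, 4 and 5. In anti-CSF1R 7, 8, 9 and 10 it stood at 4.38, 5.30, 7.96 and 2.77 CPM. All 4 anti-CSF1R libraries were lower than any isotype library, but the gap between anti-CSF1R 9 and isotype 4 was narrow, and without TMM scaling they crossed, at 8.31 and 7.67 CPM. On all 8 libraries the log2 fold change was -1.95 ± 0.51 (SE), with a 95% interval of -3.10 to -0.81, and did not pass over all genes (edgeR adjusted p = 0.147). Of all genes tested, 113, or 0.664%, had a log2 fold change at or below it.

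Mrc1 fell in the 3 alternatives that passed. With isotype 2 and 5 only the log2 fold change was -2.58 (95% interval -3.52 to -1.64, edgeR adjusted p = 0.0316), a 5.97-fold difference. With the GC and length offset it was -2.30 (edgeR adjusted p = 0.00406), and the offset-adjusted levels separated widely: 23.3, 16.4, 15.7 and 27.1 CPM in isotype 2 to 5 and 3.73, 4.27, 6.45 and 2.28 CPM in anti-CSF1R 7 to 10. DESeq2 on all libraries gave -1.97 (adjusted p = 0.00169). In these settings 1 of 9 members passed, always Mrc1, and the genes called made up 3.06%, 2.65% and 4.56% of those tested, in that order. Those called lower were 2.38%, 2.16% and 3.69%, and those called higher 0.679%, 0.493% and 0.869%. Leaving out 1 library at a time gave log2 fold changes of -2.25 to -1.59, all short of the threshold (edgeR adjusted p = 0.0967 to 0.377). The log2 fold change was negative in 18 of 18 alternatives, with adjusted p-values of 0.00169 to 0.377.

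**Figure D2:**
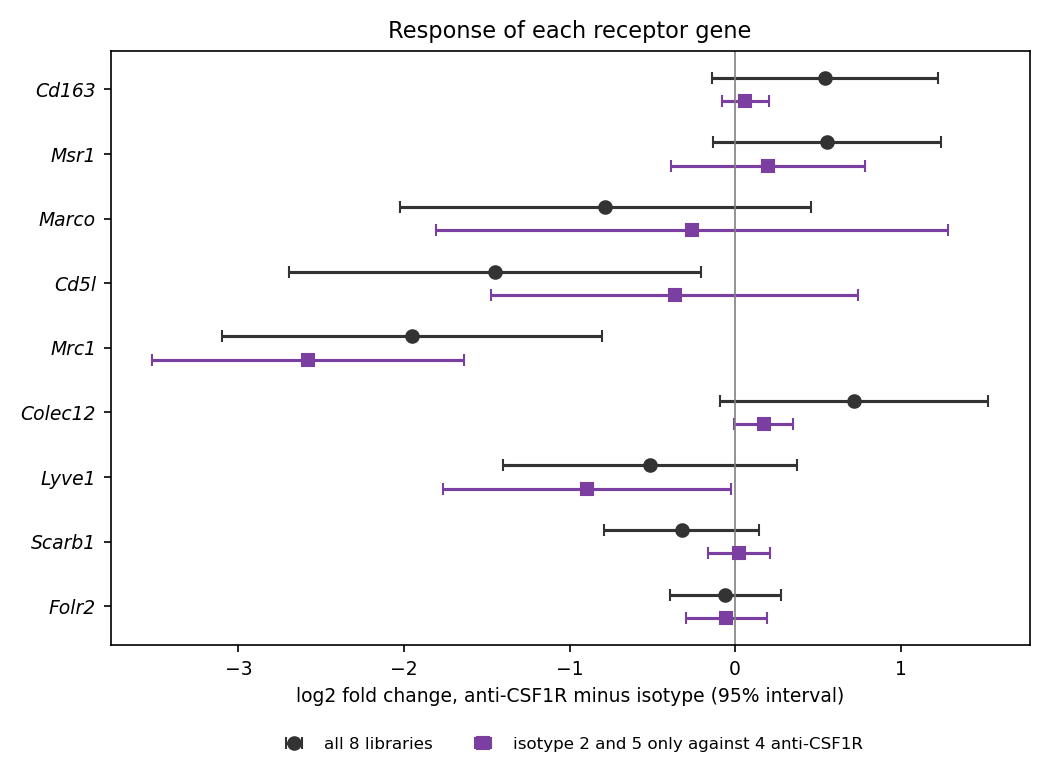
Log2 fold change, anti-CSF1R minus isotype (x axis), with its 95% interval, for each receptor gene (y axis), from edgeR on all 8 libraries (black circles) and with isotype 2 and 5 only (purple squares). The interval of Mrc1 lies below 0 in both fits, at -1.95 and -2.58, while that of Cd163 holds 0 in both and narrows to -0.079 to 0.20 with isotype 2 and 5 only.

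Colec12, the collectin CL-P1, joins a collagen-like stalk to a lectin domain and is known from vascular endothelium and stroma as well as phagocytes. It had the highest mean CPM of the set, not scaled to transcript length, at 342, 136, 99.3 and 289 in isotype 2, 3, 4 and 5. In anti-CSF1R 7 to 10 it stood at 339.6, 362, 357 and 364 CPM. Isotype 2 lay within the anti-CSF1R range, isotype 5 below it and isotype 3 and 4 far below it. The log2 fold change of 0.72 ± 0.36 did not pass (edgeR adjusted p = 0.286) and was 0.17 with isotype 2 and 5 only (95% interval -0.0091 to 0.35). Under the offset it was 0.20 (edgeR adjusted p = 0.262). So the other lectin of the set did not share the lower level of Mrc1. Mrc1 held 8.26, 7.02, 8.48 and 11.4 counts per 100 counts of Colec12 in the isotype libraries, and 1.29, 1.46, 2.23 and 0.761 in the anti-CSF1R libraries. Of all other genes, 28.5% were lower against Colec12 with no overlap and 0.217% higher.

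Cd163 encodes the receptor that takes up complexes of haemoglobin with haptoglobin. Its level was 41.0, 18.4, 16.3 and 38.8 CPM in isotype 2, 3, 4 and 5. In anti-CSF1R 7 to 10 it was 41.9, 39.3, 43.7 and 41.8 CPM. Isotype 2 and 5 therefore stood within or just below the range of the anti-CSF1R libraries, and isotype 3 and 4 stood far below it. The log2 fold change was 0.54 ± 0.30 on all 8 libraries (edgeR adjusted p = 0.299). With isotype 2 and 5 only it was 0.061, and the 95% interval of -0.079 to 0.20 excludes a fall of the size seen in Mrc1 or Csf1r between these libraries. With the offset it was 0.43 (edgeR adjusted p = 0.216).

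Within each library Mrc1 and Cd163 were set against each other. There were 68.9, 52.0, 51.5 and 84.6 Mrc1 counts per 100 Cd163 counts in isotype 2 to 5, and 10.5, 13.5, 18.2 and 6.63 in anti-CSF1R 7 to 10. The groups did not overlap, and isotype 3 and 4, which were low in both genes, stood with isotype 2 and 5 in this ratio. The log2 ratio of Cd163 to Mrc1 was 0.67 ± 0.34 with isotype and 3.12 ± 0.61 after anti-CSF1R (SD, n = 4), a difference of 2.45. The exact two-sided permutation p was 0.0286, the smallest that 70 assignments allow, and 0.147 after adjustment over the 36 pairs of members. That difference ran from 2.19 to 2.83 over 11 alternatives (exact permutation adjusted p = 0.0735 to 0.257). Of all other genes tested, 51.4% rose against Mrc1 with no overlap between the groups, and 0.0117% were lower against it, so the rise of Cd163 against Mrc1 was the common case. The reverse was rare: 0.775% of other genes rose against Cd163 with no overlap and 16.9% were lower against it.

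**Figure D3:**
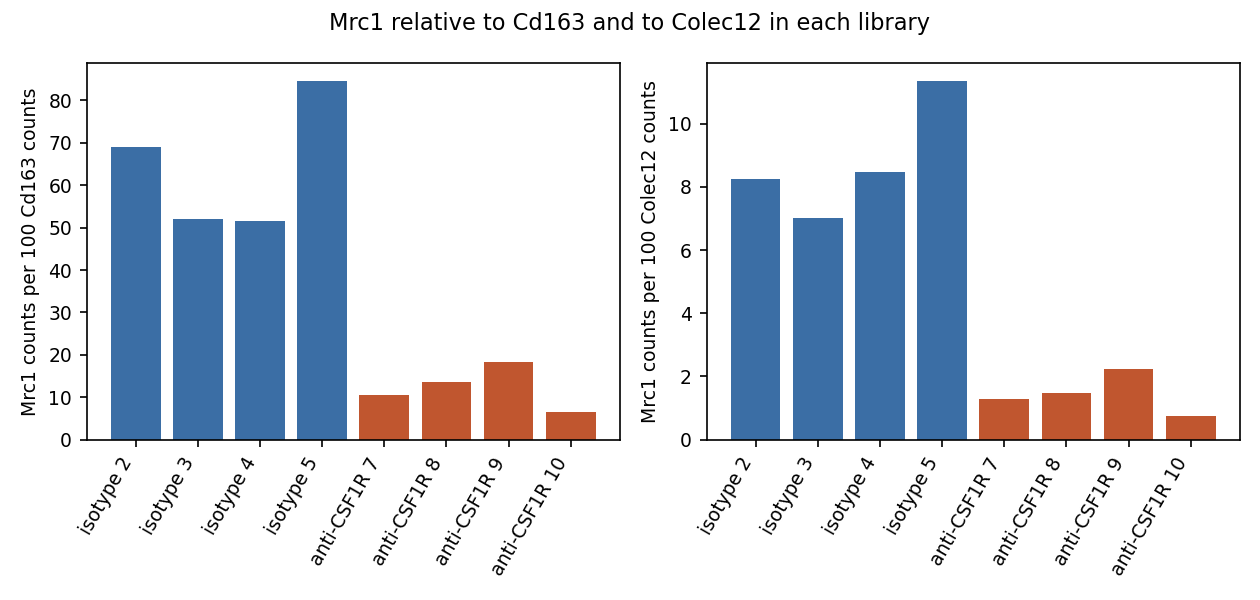
Mrc1 counts per 100 Cd163 counts (left, y axis) and per 100 Colec12 counts (right, y axis) in each of the 8 libraries (x axis), isotype blue and anti-CSF1R orange, bars from 0. Against Cd163 the isotype libraries lie between 51.5 and 84.6 and the anti-CSF1R libraries between 6.63 and 18.2.

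Msr1, the class A macrophage scavenger receptor for modified lipoproteins, was a minor transcript. Isotype 2 to 5 had 2.81, 2.10, 1.72 and 4.01 CPM, and anti-CSF1R 7 to 10 had 3.58, 5.41, 3.85 and 2.82 CPM. The groups overlapped. Its log2 fold change was 0.56 ± 0.30 (edgeR adjusted p = 0.297). It went to 0.20 with isotype 2 and 5 only. With the offset it was -0.037, the 1 negative value in 18 alternatives, and none of them passed.

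Marco and Cd5l were near the limit of what these libraries resolve, with 8 to 98 and 10 to 92 counts per library. Marco, a class A receptor of marginal zone and lung macrophages, stood at 0.670, 1.57, 1.62 and 1.02 CPM in isotype 2 to 5. In anti-CSF1R 7 to 10 it stood at 1.28, 0.766, 0.635 and 0.132 CPM, which overlapped (log2 fold change -0.78 ± 0.55, edgeR adjusted p = 0.342). Cd5l is not a receptor but a secreted protein of resident macrophages built of the same cysteine-rich domains. It stood at 0.287, 1.62, 1.52 and 0.664 CPM in isotype 2 to 5. In anti-CSF1R 7 to 10 it stood at 0.482, 0.370, 0.462 and 0.165 CPM. The log2 fold change of -1.45 ± 0.55 (edgeR adjusted p = 0.278) shrank to -0.37 with isotype 2 and 5 only (95% interval -1.47 to 0.74). Under the offset, on all 8 libraries, it was -1.17 (edgeR adjusted p = 0.191). Isotype 2 lay inside the anti-CSF1R range.

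Lyve1, a hyaluronan receptor of lymphatic endothelium and of macrophages along vessels, had 12 to 50 counts per library. Isotype 2 to 5 had 0.543, 0.229, 0.429 and 0.707 CPM, and anti-CSF1R 7 to 10 had 0.453, 0.370, 0.317 and 0.198 CPM. The groups overlapped through isotype 3 and 4 (log2 fold change -0.51 ± 0.39, edgeR adjusted p = 0.370). Isotype 2 and 5 were both above all 4 anti-CSF1R libraries. With these alone the log2 fold change was -0.89, with a 95% interval of -1.76 to -0.024, and it did not pass over all genes (edgeR adjusted p = 0.317). Under the offset, with isotype 3 and 4 kept, it was -0.69 (edgeR adjusted p = 0.237). Of 5 tested markers of lymphatic endothelium, 0 passed the threshold in edgeR (2 at an unadjusted p under 0.05, 0 in DESeq2), and the log2 fold change was negative for 1 and positive for 4, with a median of 0.60. Prox1, a factor that defines these cells, averaged 0.601 CPM in the isotype group and 0.912 CPM in the other. Its mean was 0.892 CPM in isotype 2 and 5 and 0.309 CPM in isotype 3 and 4. With isotype 2 and 5 only its log2 fold change was 0.036 (edgeR adjusted p = 0.977). In that setting the list's median was 0.32, and 1 marker passed, higher. The list's summed level was 81.1 to 121 CPM in isotype libraries and 80.4 to 86.6 CPM after anti-CSF1R. Most of it was Pdpn, which osteocytes also express and which was the marker with the negative value (77.4 and 54.7 CPM, log2 fold change -0.50, edgeR adjusted p = 0.278). With isotype 2 and 5 only the log2 fold change of Pdpn was -0.14. The part of lymphatic vessels in the Lyve1 values was not tested.

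Scarb1, the receptor that takes cholesterol esters from HDL, is made by many cell types. Isotype 2 to 5 had 92.2, 171, 124 and 98.6 CPM, and anti-CSF1R 7 to 10 had 93.0, 86.9, 102 and 107 CPM. Isotype 2 and 5 lay within the anti-CSF1R range and isotype 3 and 4 above it. The log2 fold change was -0.32 ± 0.21 (edgeR adjusted p = 0.321). Without isotype 3 and 4 it was 0.022, with a 95% interval of -0.17 to 0.21. Under the offset, with isotype 3 and 4 kept, it was -0.39 (edgeR adjusted p = 0.281).

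Folr2, the folate receptor beta of resident macrophages, was the steadiest of the set. It stood at 8.79, 7.35, 9.41 and 7.77 CPM in isotype 2 to 5. In anti-CSF1R 7 to 10 it stood at 7.89, 7.42, 8.35 and 8.35 CPM, all within the isotype range. The log2 fold change was -0.058 ± 0.15, with a 95% interval of -0.40 to 0.28 (edgeR adjusted p = 0.790). It was -0.052 once isotype 3 and 4 were left out. It turned positive with the offset (0.23, edgeR adjusted p = 0.411). In GENCODE M21 the antisense gene Gm10602 covers 63.1% of the exon bases of Folr2. Since the counting's strand setting is not given in the sources used here, reads of the antisense gene and of Folr2 cannot be told apart.

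The levels of the 9 members were ordered as CPM per kilobase of the longest GENCODE M21 transcript. With isotype the order of mean levels was Scarb1 (39.3), Colec12 (27.0), Folr2 (6.92), Cd163 (6.44), Mrc1 (3.68), Msr1 (0.732), Marco (0.633), Cd5l (0.503) and Lyve1 (0.165). The isotype ranges of neighbours in that order overlapped except between Colec12 and Folr2, Mrc1 and Msr1. With anti-CSF1R, Colec12 (44.4) stood above Scarb1 (31.4), Cd163 (9.38) above Folr2 (6.65), and Mrc1 (0.949) beside Msr1 (1.08), with no overlap in the first and second of these pairs and overlap in the last. Mrc1 thus went from a level per length clear of that of Msr1 to one that could not be told from it.

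The direction of the split within the isotype group went with GC content among the members, and nearly as well with transcript length. In isotype 3 and 4 the mean was lower than in isotype 2 and 5 for 5 members, Mrc1 (log2 ratio -1.76), Colec12 (-1.42), Cd163 (-1.20), Lyve1 (-0.92) and Msr1 (-0.84), whose longest transcripts have 38.4% to 47.9% GC. It was higher or level for the 4 others, Cd5l (1.72), Marco (0.92), Scarb1 (0.63) and Folr2 (0.017), with 48.5% to 54.5% GC. The longest transcripts of the 5 run from 2893 to 8024 bases, and those of the 4 others from 1204 to 3093. These 9 points are a description of 2 libraries against 2, and GC content and length were not tested apart. Among the anti-CSF1R libraries, number 10 was the lowest for 5 of 9 members, Mrc1, Msr1, Marco, Cd5l and Lyve1, and for Csf1r.

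**Figure D4:**
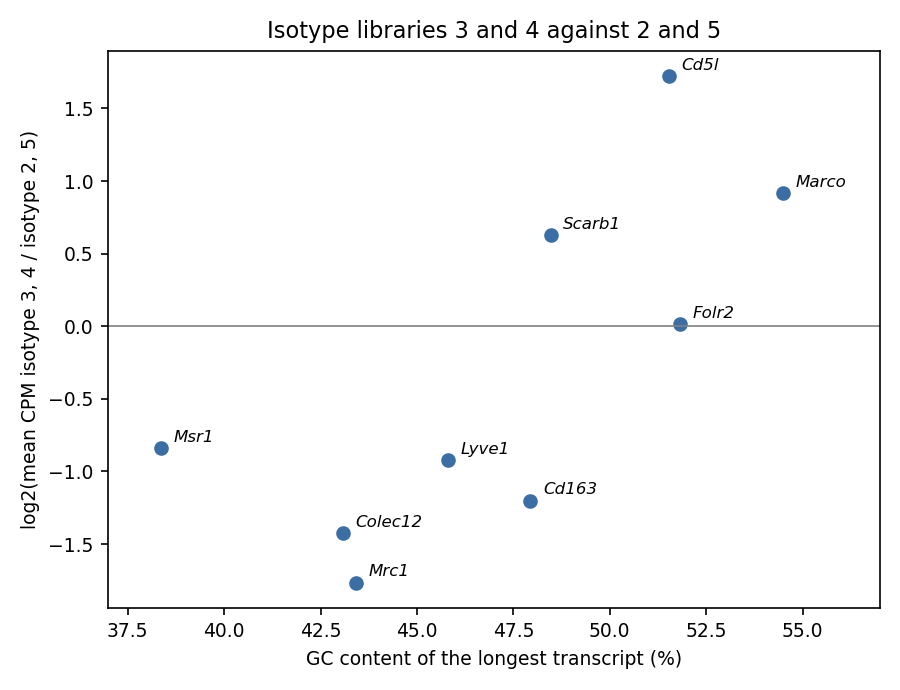
Log2 ratio of the mean CPM in isotype libraries 3 and 4 to that in isotype 2 and 5 (y axis) against the GC content of the longest transcript in percent (x axis); each point is 1 of the 9 genes. The 5 genes with 38.4% to 47.9% GC lie below 0, and the 4 with 48.5% to 54.5% GC lie at or above it.

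Against Csf1r, 7 of the 9 members were higher with anti-CSF1R, with no overlap between the groups (exact two-sided permutation p = 0.0286 each, the smallest possible, adjusted p = 0.0367 over 9 ratios). The same held for 98.2% of all other genes, since Csf1r itself fell, so the count says nothing particular to these receptors. Mrc1 and Marco were the members whose ratio did not separate. The log2 ratio of Mrc1 to Csf1r was -4.35 ± 1.61 with isotype and -3.55 ± 0.41 after anti-CSF1R, which is 0.81 higher (exact permutation adjusted p = 0.400) that turned to -0.58 with isotype 2 and 5 only. Among the 36 pairs of members, 7 had ratios that did not overlap between the groups and 0 passed after adjustment (exact permutation adjusted p = 0.147 at the lowest). With 0.0286 as the smallest possible p, 7 such pairs could not pass over 36, so the 0 decides nothing. In those 7, Mrc1 was lower against Cd163, Msr1 and Colec12, and both Folr2 and Lyve1 were lower against Cd163 and Colec12.

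Of 26 tested genes on a list of other scavenger and endocytic receptors, 3 fell and 0 rose over all genes in edgeR, against 0.822% and 0.0235% of all genes, with a median log2 fold change of -0.17 against 0.031 over all genes. Fcrls, which is known from microglia and is built of Fc receptor-like and scavenger domains, fell from 13.9 to 0.716 CPM, Cd68, a lysosomal glycoprotein of macrophages and osteoclasts, from 137 to 31.4 CPM, and Cd5, the lymphocyte receptor of the cysteine-rich family, from 5.08 to 0.954 CPM (edgeR adjusted p = 0.00584, 0.0266 and 0.0318). Once isotype 3 and 4 were left out, 6 fell and 2 rose. The genes behind the added calls, picked with their values in view, were Stab1 (log2 fold change -0.43), Cxcl16 (-0.93) and Cubn (-0.89) among those that fell, and Cd36 (0.53) and Megf10 (0.48), which rose. Their edgeR adjusted p-values there were 0.0458, 0.0246, 0.0212, 0.00539 and 0.00765. In edgeR on all 8 libraries without the offset none of these 5 passed. Stab1 and Cxcl16 passed on all 8 with the offset (edgeR adjusted p = 0.0252 and 0.0134) and in DESeq2 (adjusted p = 0.0147 and 6.51e-05). Cubn, Cd36 and Megf10 passed in neither (edgeR adjusted p = 0.0501, 0.0613 and 0.131 with the offset).

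Genes that act on the cargo of these receptors were mostly not past the threshold. In the HDL and cholesterol list 1 of 9 tested genes fell, Apoe, the apolipoprotein that macrophages secrete, from 169 to 48.9 CPM (edgeR adjusted p = 0.0267). Of 9 genes of haemoglobin and haem handling 0 passed in edgeR, 4 at an unadjusted p under 0.05 and 1 in DESeq2 (median log2 fold change -0.40, and 0.094 with isotype 2 and 5 only). Its most abundant gene, the ferritin light chain Ftl1, stood at 1105 and 567 CPM (log2 fold change -0.96, edgeR adjusted p = 0.242). Leaving out isotype 3 and 4 brought this to -0.30. With the offset 1 of these 9 rose, Slc40a1, the iron exporter, named after its value was seen (0.55, edgeR adjusted p = 0.0371). Of 7 tested folate genes 0 passed in edgeR, and of 10 hyaluronan genes 0 (1 and 3 at an unadjusted p under 0.05, 1 and 1 in DESeq2). Cd44, the main hyaluronan receptor, stood at 241 and 262 CPM (edgeR adjusted p = 0.700), and its direction turned in 5 of the alternatives. The hyaluronidase gene Hyal1, named after its value was seen, fell in both settings: by 0.64 on the log2 scale without isotype 3 and 4 (edgeR adjusted p = 0.00686), and by 0.63 under the offset (edgeR adjusted p = 0.0145). Of 8 macrophage transcription factors 1 fell, Spi1, from 65.1 to 15.4 CPM (edgeR adjusted p = 0.0318).

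Markers of the cell types that could carry these receptors moved in different ways. Of 14 tested resident macrophage markers 7 fell in edgeR, against 0.822% of all genes tested. Among the 7 were Ms4a7, Csf1r and C1qc (edgeR adjusted p = 0.00978, 0.0156 and 0.0156). The log2 fold change was negative for 11 of the 14 (median -2.07). It was positive for the rest, among them Mertk, and none of those passed. The list's summed level was 436 to 798 CPM in isotype libraries and 166 to 214 CPM after anti-CSF1R, and Vsig4 was listed at 0 in all 4 anti-CSF1R libraries and at most 0.0382 CPM elsewhere, under the floor. Of 9 osteoclast markers 6 fell, against the same 0.822%, among them Oscar, Ctsk and Ocstamp (edgeR adjusted p = 0.00584, 0.0198 and 0.0267). All 9 had a negative log2 fold change. Blood vessel endothelium, another source of Scarb1 and Colec12, had 0 of 7 markers past the threshold in edgeR (3 at an unadjusted p under 0.05, 0 in DESeq2). Its summed level was 511 to 549 CPM in isotype libraries and 611 to 699 CPM after anti-CSF1R, with no overlap. Of all single genes tested, 6.61% were higher with no overlap. The log2 fold change was negative for 2 of the 7 markers, with a median of 0.24. Fibroblast markers had 0 of 6 past it in edgeR (2 at an unadjusted p under 0.05, 1 in DESeq2), with sums of 7127 to 9224 and 7628 to 8440 CPM. Monocyte, dendritic cell, muscle, adipocyte, erythroid and neutrophil markers had 0 past it in edgeR (2, 2, 3, 0, 0 and 0 at an unadjusted p under 0.05, and 0, 1, 3, 0, 0 and 0 in DESeq2). With a muscle marker score as covariate the calls went from 7 to 0 for resident macrophage markers, from 6 to 1 for osteoclast markers, from 3 to 1 for the other scavenger receptors and to 0 for Apoe and Spi1. Without anti-CSF1R 7 or 8, 0 genes at all were called. The parts of these cell types in the levels of the 9 receptors were not tested.

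For the 6 members whose log2 CPM averaged 0 or more, the closest of 14248 other genes were found by the root mean square difference of centred log2 CPM over the 8 libraries. Mrc1 had no close match: Hpgds (0.27), St18 (0.27) and Atp6v0d2 (0.36) came nearest. Cd163 was matched closely by Rab18 (0.031), Phyhipl (0.034) and Gigyf2 (0.036), Colec12 by Ddr2 (0.052), Ankib1 (0.053) and Rnf170 (0.055), and Msr1 by Srgn (0.12), Fyb (0.16) and Fgf14 (0.17). Folr2 lay nearest to Rad23b (0.042), Dcaf5 (0.044) and Nono (0.047), and Scarb1 to Hps4 (0.047), Tgfb1 (0.047) and Trim47 (0.050). Within the set, the distance was smallest between Cd163 and Colec12 (0.17) and largest between Mrc1 and Colec12 (1.41).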

How the data were processed

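The values are raw counts per gene symbol, deposited by the authors in 1 table of 8 libraries (4 isotype, 4 anti-CSF1R). A stranded mRNA kit was used on 1 µg of RNA, with 101 bp paired reads and 6 Gb per sample, per the labels' protocols. STAR 2.7.10b, featureCounts 1.6.3, GRCm38 and GRCm39 are named in the submitters' processing notes. Annotation, strand setting and the role of each build: not given in the sources used here. Only promoters therefore carry coordinates. Of counts from 1 to 10, 82.8% to 84.7% were even, as when both mates are counted, so counting error is larger than the totals imply.

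Members and gene lists were chosen with earlier results of these data known. The comparison used edgeR 4.0.16 in R 4.3.3 (filterByExpr, TMM, robust quasi-likelihood F-test, Benjamini-Hochberg, threshold 0.05). Standard errors are the fold change divided by the square root of F. CPM uses TMM library sizes. Ratios used log2 CPM with a prior count of 2 and exact permutation. The scripts were tested on simulated data. Alternatives were DESeq2 1.42.0, limma-voom (limma 3.58.1), scaling by RLE or by library size alone, no filter, 1 CPM in 4 libraries, a muscle score covariate, leaving out each library, isotype 2 and 5 only, halved counts, a prior count of 0.5, and an offset for GC content and length from natural splines (5 degrees of freedom each) over the longest GENCODE M21 transcript, known for 94.0% of genes tested. The rule for named genes took the 9 members, Csf1r, and per list up to 3 members past the threshold with the smallest p, or the most abundant member where none passed. It named 33 genes, of which 22 are printed and 1 is not reported here, beside the 3 nearest genes of each member. A further 8 were named after their values were seen, beside the markers Prox1, Pdpn and Vsig4.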

Additional observations from a re-analysis of the deposited data

Results flagged for a closer look

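Among the 9 receptor genes and Csf1r, 20 groups of 4 libraries were examined for a value far from the others, a rule that chance meets in about 1 of 20 groups. In 1 of them, Csf1r stood at 39.4 CPM in anti-CSF1R 10, against 61.4 to 64.4 CPM in the other 3 anti-CSF1R libraries.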

How the results depend on the processing

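The number of genes called in edgeR was 144 on all libraries, 452 under the offset, 536 with isotype 2 and 5 only and 4 with the muscle covariate (1054 at an unadjusted p under 0.05), and 777 with DESeq2. It ran from 0 to 260 without 1 library: 0 without anti-CSF1R 7 or 8 (1903 and 1597 at an unadjusted p under 0.05), 4 without 9, 14 without 10, 35 without isotype 4, 260 without isotype 2 and 234 without isotype 5. Members called were 0 on all libraries and 1, Mrc1, under DESeq2, the offset, or isotype 2 and 5 only. Members whose ratio to Csf1r differed were 7, and 0 with isotype 2 and 5 only, where the exact permutation test over 15 assignments cannot go below p = 0.0667. Directions turned for Msr1 with the offset (-0.037), Folr2 with library size alone (0.099) and with the offset (0.23), and Scarb1 with isotype 2 and 5 only (0.022). Cd44 turned with the muscle covariate (-0.049), without isotype 3 (-0.00031) or 4 (-0.0066; 0.31 at most without 1 library), under the offset (-0.34) and with isotype 2 and 5 only (-0.21). The log2 ratio of Mrc1 to Cd5l turned without isotype 2 (0.16; -1.18 at the lowest without 1 library) and that to Csf1r with isotype 2 and 5 only (-0.58). The cause was not tested. Csf1r kept its sign in 18 of 18 alternatives and its call in 13. Library size alone moved the median of all genes to 0.19 from 0.031. No paired analysis was possible because the groups share no replicate numbers. Low counts of Marco, Cd5l and Lyve1 limit what could be seen for them. Cd5l and Lyve1 have no value under the 1 CPM filter.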

Other observations

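Among the resident macrophage markers, Mertk, a receptor for dying cells, was named after its value was seen because it paralleled Cd163. Its mean was 66.2 ± 28.6 CPM in the isotype group and 96.4 ± 9.22 CPM after anti-CSF1R (SD, n = 4), and the groups overlapped. Its log2 fold change was 0.54 on all 8 libraries (edgeR adjusted p = 0.295). Without isotype 3 and 4 it was 0.082 (edgeR adjusted p = 0.740), beside 0.54 and 0.061 for Cd163.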
